A study of Mus musculus with 19 samples.

Results

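The colony-stimulating factors and their receptors were examined as 8 genes in CD11b+ cells of the mouse brain, the surface integrin CD11b marking microglia and other myeloid cells. The genes were chosen by name as 4 ligand genes (Csf1, Il34, Csf2 and Csf3) and 4 receptor genes (Csf1r, Csf2ra, Csf2rb and Csf2rb2), 8 of the 56980 genes in the count table, and all 8 were found by their Ensembl identifiers. The low-count filter kept 7 of them and removed Csf2. The cells came from male PARK7/DJ-1 KO mice and their wildtype littermates aged 3 to 4 months, which had received lipopolysaccharide (LPS, a bacterial cell wall component) intraperitoneally at 4 μg/g body weight, or PBS as saline vehicle, 6 h before perfusion. There were 4 wildtype PBS, 5 wildtype LPS, 5 KO PBS and 5 KO LPS mice, 19 in all, and 1 library of total RNA per mouse. The KO line carries a gene trap, an insertion that interrupts the transcript of Park7 in every cell of the body, and had been backcrossed to C57BL/6NCrl. The cells were enriched magnetically from brain without olfactory bulb and cerebellum, which leaves other CD11b+ leukocytes and carried-over brain cells in the sample.

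CSF1 and IL-34 are the ligands of the receptor tyrosine kinase CSF1R, on which microglia depend for survival. CSF2, also called GM-CSF, is bound by a specific alpha chain encoded by Csf2ra together with the common beta chain encoded by Csf2rb. Csf2rb2 is a rodent duplicate of Csf2rb that encodes a beta chain used by the IL-3 receptor. CSF3, also called G-CSF, drives the production and mobilization of neutrophils and acts through the separate receptor CSF3R. Csf2 and Csf3 are classical targets of NF-kappaB in stimulated cells, with short-lived mRNAs.

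The promoter sequences of Csf1 and Csf2 below are shown because Csf1 rose after LPS whereas Csf2 was barely counted. Each run holds the 250 bases before the start of the Ensembl canonical transcript, in GRCm39 and written 5′ to 3′ on the strand of the gene. Capitals mark matches to the cytokine element CK-1 (in Csf2) and to the NF-kappaB decamer (in Csf1), both searched on both strands.
Csf2, chr11:54140494-54140743, minus strand: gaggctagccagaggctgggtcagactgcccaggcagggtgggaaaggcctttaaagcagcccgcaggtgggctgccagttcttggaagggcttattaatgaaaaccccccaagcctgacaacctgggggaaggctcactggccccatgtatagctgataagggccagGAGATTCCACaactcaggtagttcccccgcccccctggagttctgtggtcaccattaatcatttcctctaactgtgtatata
Csf1, chr3:107667807-107668056, minus strand: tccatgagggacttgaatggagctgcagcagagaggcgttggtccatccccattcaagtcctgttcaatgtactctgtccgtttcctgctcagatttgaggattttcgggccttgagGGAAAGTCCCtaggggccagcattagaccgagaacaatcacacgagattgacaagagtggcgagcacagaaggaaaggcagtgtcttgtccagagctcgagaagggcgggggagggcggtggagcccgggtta

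CK-1 matched the promoter of Csf2 from 82 to 73 bases before the start. Among the same windows of 21757 protein-coding genes it matched 38, or 0.175%. The NF-kappaB decamer of Csf1 lay 133 to 124 bases before the start, on the opposite strand, and 7.63% of all windows held one. Of the other members described here, which leave out Csf3, none held CK-1 or the decamer in this window, and Csf2rb held a match to the C/EBP sequence (TTGCNNAA, in 9.34% of all windows) 27 to 20 bases before its start. Exons of another Csf2rb transcript lie inside the window of Csf2rb, so its matches lie in part in transcribed sequence. Among further sequences searched on both strands, AP-1 (TGANTCA, in 6.18%) was found in none of these members. The GAS element (TTCNNNGAA, in 7.7%), whose palindrome matches on both strands, was found in Csf2, Csf2rb and Csf2rb2, and the PU.1 sequence (GAGGAA, in 22.9%) in Csf1r, Csf2, Csf2rb and Csf2rb2. None of these matches overlapped a match to another of the sequences. These matches describe letters and not binding, which was not measured.

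Total counts per library ranged from 11936364 to 22788884, so that 3 counts, taken as the smallest signal a library can show, corresponded to 0.138 to 0.256 CPM. CPM values are read counts relative to the library total after scaling with edgeR's TMM factors. Such limits cover counting error only, whereas the tests set a group difference against the spread between mice. Park7 served as the check of the labels and had 262 to 533 counts in wildtype libraries and 9 to 90 in KO libraries. The microglial markers P2ry12, Tmem119 and Cx3cr1 had at least 1021 counts in every library. Summed neuron, astrocyte, oligodendrocyte, endothelial and pericyte markers differed widely between libraries of the same group, and their mean log2 summed CPM is called the marker score of other brain cells below. It ranged from 6.55 in KO LPS replicate 5 to 10.3 in KO LPS replicate 1. The libraries KO LPS replicate 5 and wildtype LPS replicate 1 (7.29) had the lowest scores of the LPS groups. Without them, the LPS calls of the members were the same in wildtype mice, and in KO mice that of Csf2ra was lost.

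At PBS, the receptor of the lineage was by far the highest of the 8 genes. Csf1r (ENSMUSG00000024621, chr18:61229714-61266535) was the gene with the highest count in 2 of 4 wildtype and 3 of 5 KO PBS libraries and ranked no lower than 3 in the others, with 0.846% to 1.20% of all counts. Per kilobase of exon, its mean level in wildtype PBS libraries was 1315 ± 283 CPM per kb (SD, n = 4) and in KO PBS libraries 1337 ± 241 (SD, n = 5). Next came the GM-CSF receptor chains. Csf2ra stood at 26.8 ± 2.84 CPM per kb, Csf2rb at 17.8 ± 2.85 and Csf2rb2 at 15.3 ± 2.50 in wildtype PBS libraries (SD, n = 4), and the ranges of Csf2rb and Csf2rb2 overlapped. Csf1 followed with 8.53 ± 0.378 and Il34 with 1.10 ± 0.841 CPM per kb (SD, n = 4), the 2 ligands of that receptor. Csf3 stood at 0.0657 CPM per kb in wildtype PBS libraries and Csf2 had no count in any PBS library. The order of means was the same in KO PBS libraries. It rests on the union of all annotated exons: per kilobase of the canonical transcript, Csf2ra (33.6 CPM per kb) and Csf2rb (27.2) overlapped at wildtype PBS, as did Csf2rb2 (15.3) and Csf1 (11.95), whereas Csf2rb and Csf2rb2 did not.

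After LPS the order changed below Csf1r. In wildtype LPS libraries Csf2rb came second at 83.0 ± 13.6 CPM per kb, then Csf2rb2 at 75.1 ± 13.02, Csf3 at 62.5 ± 38.6, Csf2ra at 34.9 ± 6.37 and Csf1 at 31.8 ± 3.74 (SD, n = 5), where each neighbouring pair from Csf2rb to Csf1 overlapped. In KO LPS libraries the same genes overlapped in the same way, with Csf1 (40.3 ± 11.4 CPM per kb) above Csf2ra (34.6 ± 10.1, SD, n = 5). Per kilobase of the canonical transcript, Csf2rb (127 CPM per kb) lay above Csf2rb2 (75.1) without overlap in wildtype LPS libraries, and Csf1 stood above Csf2ra there (44.6 and 43.8) and above Csf3 in KO LPS libraries (56.4 and 46.4), with overlap. On the union of exons, Il34 remained at 1.31 CPM per kb in wildtype and 1.24 in KO LPS libraries, below all of these.

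**Figure D1:**
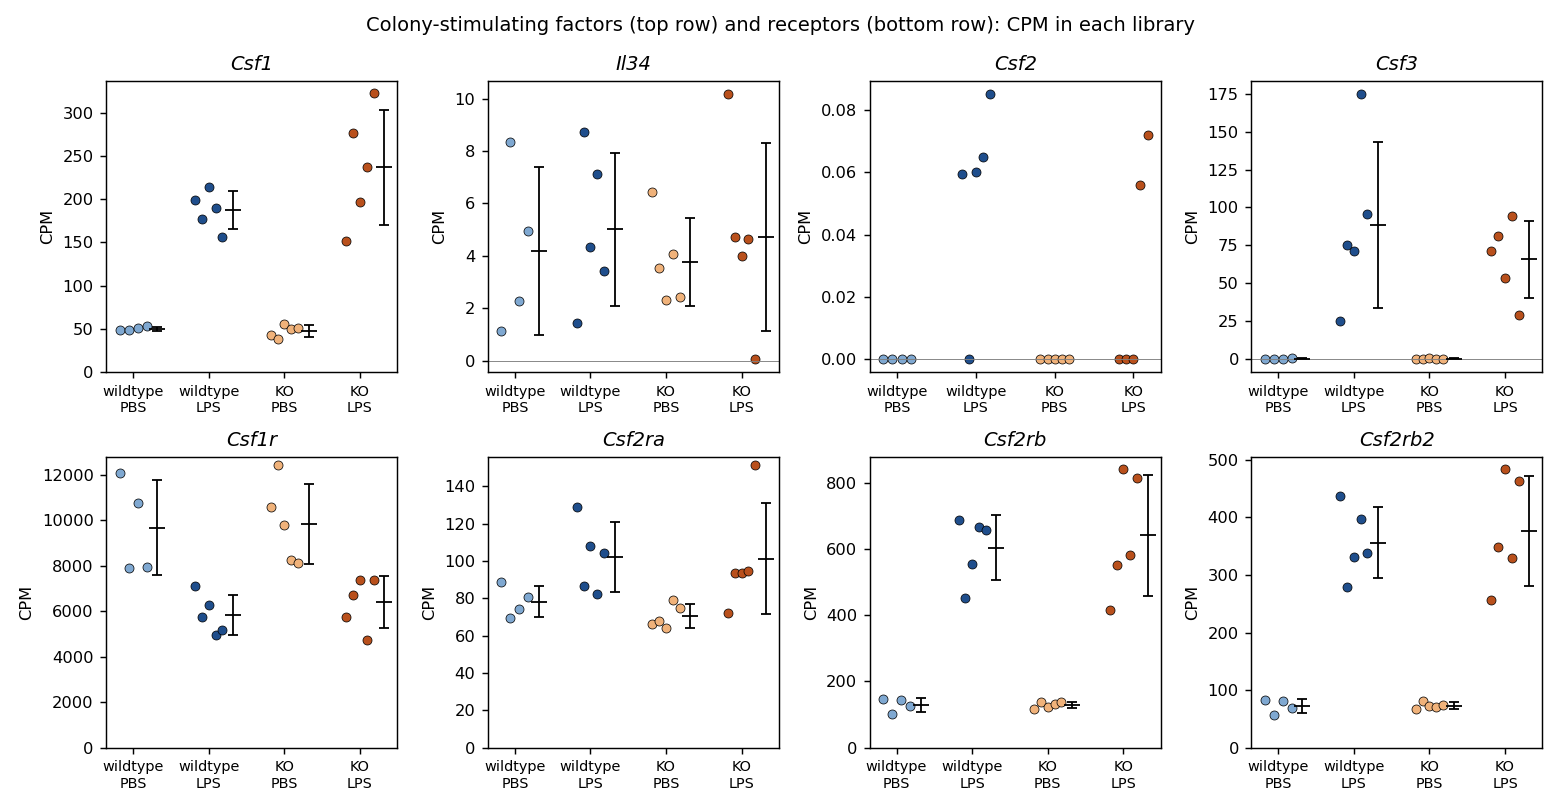
CPM (read counts relative to the TMM-scaled library total) of each of the 8 genes in the 19 libraries, by genotype and treatment; points are libraries, horizontal marks with bars are the group mean and SD, omitted for Csf2. Csf1, Csf3, Csf2rb and Csf2rb2 of the LPS libraries all lie above the PBS libraries of the same genotype, Csf1r lies below them, and Il34 overlaps in every group.

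Of the 7 tested genes, 4 rose and 1 fell after LPS in wildtype mice, and 5 rose and 1 fell in KO mice (adjusted p-value under 0.05 and a log2 fold change, log2FC, of at least 0.5 in size, edgeR quasi-likelihood test with Benjamini-Hochberg adjustment over all genes tested). Among all 18739 tested genes, 18.4% rose and 17.4% fell in wildtype mice, and 20.1% rose and 19% fell in KO mice. The 4 genes that rose in both genotypes, as 16.8% of all genes did, were Csf1, Csf3, Csf2rb and Csf2rb2. The fall in both, shared by 15.4% of all genes, was that of Csf1r, and the additional gene in KO mice was Csf2ra. These 5 genes also had treatment groups that did not overlap in either genotype, which 20.8% (higher) and 17.0% (lower) of all genes had in wildtype and 16.2% and 16.6% in KO mice. For the 7 tested genes the log2FC had a median of 1.90 in wildtype mice and of 2.31 in KO mice, against -0.06 and -0.01 over all tested genes. Scaling by library totals alone, without TMM, would lower these all-gene medians to -0.15 and -0.12. In bulk samples, fewer cells of a type and less RNA per cell cannot be told apart, which holds for each change below.

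**Figure D2:**
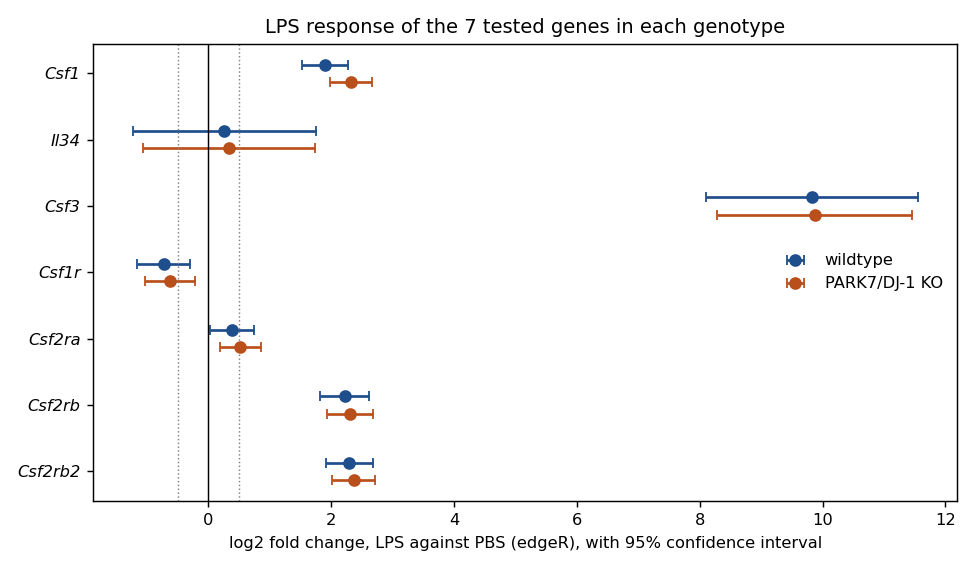
Log2 fold change of LPS against PBS for the 7 tested genes, estimated by edgeR in wildtype (blue, 5 LPS and 4 PBS mice) and PARK7/DJ-1 KO mice (orange, 5 and 5), with 95% confidence intervals; dotted lines mark the fold threshold of 0.5. Csf3 lies near 9.8 in wildtype mice, Csf1, Csf2rb and Csf2rb2 lie between 1.90 and 2.37, and Csf1r lies below 0 in both genotypes.

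Csf3 (ENSMUSG00000038067, chr11:98592089-98594458, plus strand), the gene of G-CSF, showed the largest change of the members. Wildtype PBS libraries held 0, 0, 0 and 6 counts, and KO PBS libraries 0, 0, 4, 1 and 1. Wildtype LPS libraries held 422, 1147, 1187, 2691 and 1124 counts, and KO LPS libraries 1268, 1425, 890, 1687 and 399. Every LPS library was thus far above every PBS library, while the LPS libraries of 1 genotype differed several-fold among themselves. The means after LPS were 88.5 ± 54.7 CPM in wildtype and 65.8 ± 25.6 CPM in KO mice (SD, n = 5 each). The fitted log2FC was 9.83 ± 0.82 (SE) in wildtype mice (adjusted p = 2.79e-08) and 9.87 ± 0.76 in KO mice (adjusted p = 6.00e-09, both edgeR). Because the PBS groups held 6 counts each (exact Poisson 95% interval 2.20 to 13.1), the size of the fold is poorly defined. Wildtype PBS replicate 4 held all 6 counts of its group. Without it, the group had none and the pooled level after LPS was at least 1416-fold higher, taking 3 counts over the group as the floor. Without KO PBS replicate 3, which held 4 of the 6 counts of its group, the fitted log2FC in KO mice was 10.93.

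The 2 LPS libraries with the lowest marker score of other brain cells also had the lowest Csf3, which was 25.1 CPM in wildtype LPS replicate 1 and 28.8 CPM in KO LPS replicate 5, against 53.2 to 175 CPM in the other 8. The summed neuron, astrocyte, endothelial and pericyte markers each had their lowest value of the group in these 2 libraries. The summed endothelial markers ran from 158 to 720 CPM in wildtype LPS and from 73.5 to 765 CPM in KO LPS libraries. Those of pericytes ran from 55.5 to 362 and from 13.8 to 491 CPM, those of astrocytes from 506 to 2195 and from 188 to 4273 CPM, and those of neurons from 37.9 to 77.1 and from 22.0 to 161 CPM. The part of any of these cells in Csf3 was not tested. The 3 genes whose deviations from the group means were most like those of Csf3 over the 19 libraries were Zfp948 (Pearson r = 0.864), Steap4 (0.863) and Ptx3 (0.860). Within the 10 LPS libraries, chosen after the PBS counts were seen, they were Ptx3 (0.976), Zfp948 (0.968) and Crispld2 (0.957). Its gene span overlaps the noncoding Gm38985 on the opposite strand.

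Csf1 (ENSMUSG00000014599, chr3:107648364-107667806, minus strand), the broadly expressed ligand of CSF1R, rose in both genotypes. It stood at 48.4, 48.5, 50.7 and 53.1 CPM in wildtype PBS libraries and at 198, 177, 214, 189 and 156 CPM in wildtype LPS libraries. KO PBS libraries had 43.1, 38.0, 55.6, 49.9 and 50.4 CPM, and KO LPS libraries 151, 276, 197, 238 and 322 CPM. The treatments did not overlap in either genotype, and the KO LPS libraries were the most spread. The log2FC was 1.90 ± 0.18 (SE) in wildtype mice (adjusted p = 9.30e-08) and 2.32 ± 0.17 in KO mice (adjusted p = 2.66e-09, both edgeR). Permuting the libraries' log2 CPM exactly between treatments (two-sided) gave p = 0.00794 in each genotype for Csf1, and likewise for Csf3, Csf1r, Csf2rb and Csf2rb2, the smallest p these group sizes allow.

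Il34 (ENSMUSG00000031750, chr8:111423928-111532584, minus strand), the second ligand of CSF1R, which in the brain is mainly a product of neurons, did not pass the test in either genotype. Wildtype PBS libraries had 1.15, 8.36, 2.30 and 4.96 CPM and wildtype LPS libraries 1.43, 8.74, 4.33, 7.14 and 3.41 CPM. KO PBS libraries had 6.44, 3.55, 2.33, 4.08 and 2.43 CPM and KO LPS libraries 10.2, 4.74, 4.00, 4.64 and 0.0721 CPM, the last resting on 1 count. All groups overlapped. The log2FC was 0.26 (95% confidence interval -1.23 to 1.75) in wildtype and 0.33 (-1.06 to 1.73) in KO mice, so changes of more than 1 log2 unit in either direction were within the error. The exact permutation p was 0.627 in wildtype and 0.913 in KO mice, for differences in mean log2 CPM of 0.36 and -0.35. In KO mice that difference had the opposite sign to the fitted log2FC. Leaving out KO LPS replicate 1 turned the fitted KO value to -0.13, and leaving out wildtype PBS replicate 1 turned the fitted wildtype value to -0.06.

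The spread of Il34 went largely with the other brain cells. The 4 libraries with the highest marker score (KO LPS replicate 1, wildtype PBS replicate 2, KO PBS replicate 1 and wildtype LPS replicate 2, scores 9.61 to 10.3) were the libraries of highest Il34 in their groups, at 6.44 to 10.2 CPM. The lowest scores of the wildtype PBS, wildtype LPS and KO LPS groups were in the libraries with their lowest Il34, whereas in the KO PBS group the lowest score (replicate 5, 7.97) and the lowest Il34 (replicate 3, score 8.92) were in different libraries. The genes most like Il34 in their deviations from the group means over 19 libraries were Ly6c1 (r = 0.981), Galnt15 (0.979) and Rgs4 (0.978). Ly6c1 belongs to the endothelial marker list used here. The summed neuron markers ran from 16.2 to 161 CPM over all libraries, without any at 0 in any library, and the summed endothelial markers from 73.5 to 1154 CPM. The part of either cell type in Il34 was not tested. The span of Il34 holds Vac14 and Mtss2 on the opposite strand, and the strand setting of the counting was not given in the sources used here.

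**Figure D3:**
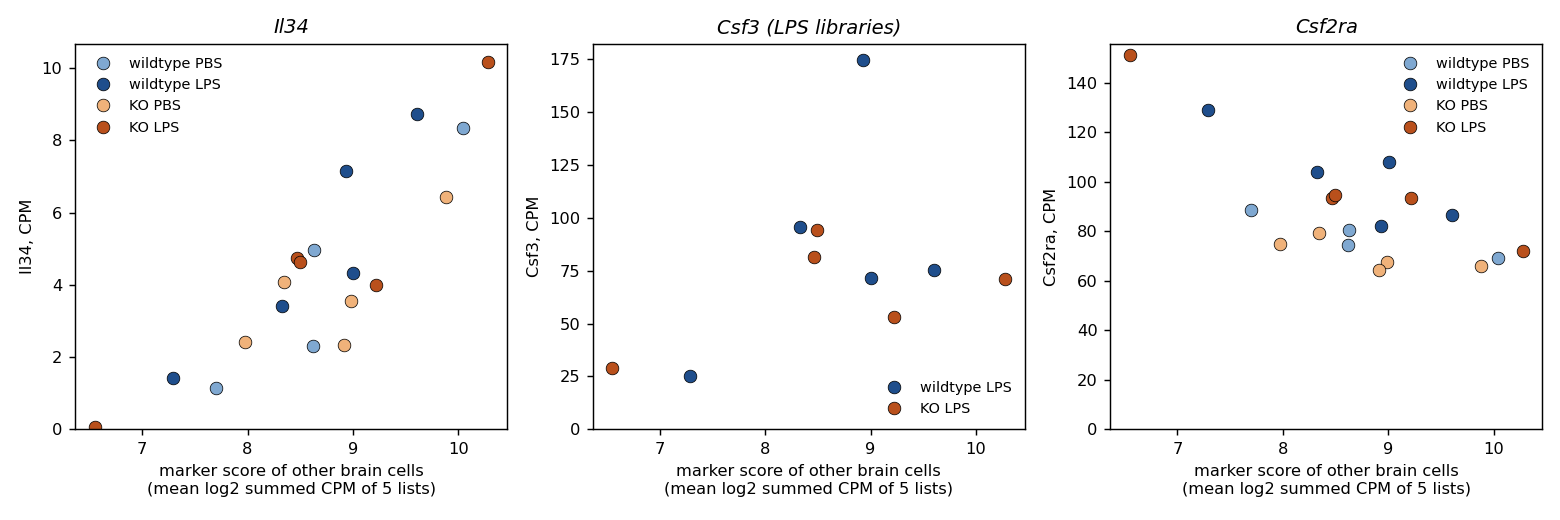
CPM of Il34, Csf3 (LPS libraries only) and Csf2ra against the marker score of other brain cells, the mean log2 summed CPM of neuron, astrocyte, oligodendrocyte, endothelial and pericyte marker lists; each point is 1 library, coloured by group. Il34 is lowest (0.0721 CPM) at the lowest score of 6.55 and highest (10.2 CPM) at the highest score of 10.3, Csf3 is lowest in the 2 LPS libraries of lowest score, and Csf2ra is highest (151 CPM) at the lowest score.

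Csf2 (ENSMUSG00000018916, chr11:54138097-54140493, minus strand), the gene of GM-CSF, was not detectable at this depth in most libraries. No PBS library held a count. Of the LPS libraries, 4 of 5 wildtype and 2 of 5 KO libraries held 1 count each, all under the floor of 3 counts, so no fold or test is given. Csf3 had 399 to 2691 counts in the LPS libraries. T and NK cell markers, another possible source of Csf2, summed to 0.361 to 2.86 CPM, and Cd3e had at most 2 counts in any library. Their part was not tested.

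Csf1r fell after LPS in both genotypes. Wildtype PBS libraries had 12073, 7923, 10780 and 7944 CPM and wildtype LPS libraries 7116, 5735, 6268, 4948 and 5165 CPM. KO PBS libraries had 10594, 12417, 9781, 8276 and 8135 CPM and KO LPS libraries 5744, 6733, 7369, 4731 and 7383 CPM. The groups did not overlap, although the lowest PBS library of each genotype was within 1000 CPM of the highest LPS library. The log2FC was -0.73 ± 0.20 (SE) in wildtype mice (adjusted p = 0.00713) and -0.62 ± 0.19 in KO mice (adjusted p = 0.0128, both edgeR). All 8 matched microglial markers fell in both genotypes as well, by a median of -1.92 and -1.64 on the log2 scale in wildtype and KO mice, among them P2ry12 (-3.66 and -3.36), a purinergic receptor, and Tmem119 (-1.26 and -1.25). Csf1r still ranked among the 5 highest-count genes of every LPS library, with 0.485% to 0.689% of counts. The genes most like it in their deviations were Laptm5 (r = 0.982), Serinc3 (0.973) and Ly86 (0.971).

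Beside the falling receptor and the rising ligand, the count of Csf1 relative to Csf1r went from a median of 0.00541 to 0.0308 within wildtype libraries and from 0.00568 to 0.0410 within KO libraries. The lowest LPS library (0.0263) was above the highest PBS library (0.00668). As a ratio within a library, this value does not depend on the scaling of libraries.

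The beta chain genes rose in both genotypes. Csf2rb (ENSMUSG00000071713, chr15:78209952-78238047, plus strand), the signalling beta chain shared by the receptors of GM-CSF, IL-3 and IL-5, rose from 148, 102, 143 and 126 CPM in wildtype PBS to 688, 453, 556, 668 and 656 CPM in wildtype LPS libraries. In KO mice it rose from 117, 138, 123, 133 and 137 CPM to 416, 550, 841, 583 and 814 CPM. The lowest LPS library was about 3 times the highest PBS library in either genotype. The log2FC was 2.22 ± 0.19 (SE) in wildtype mice (adjusted p = 4.14e-08) and 2.31 ± 0.18 in KO mice (adjusted p = 6.32e-09, both edgeR).

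Csf2rb2 (ENSMUSG00000071714, chr15:78166707-78189921, minus strand) lies head to head with Csf2rb, with 20.3 kb between their starts. It rose from 82.3, 57.4, 81.8 and 69.2 CPM in wildtype PBS to 437, 278, 331, 397 and 338 CPM in wildtype LPS libraries. KO PBS libraries had 66.6, 81.7, 72.3, 70.7 and 74.0 CPM and KO LPS libraries 257, 348, 484, 330 and 463 CPM. The treatments were as clearly apart as for Csf2rb, and the same libraries were high and low within the groups. The log2FC was 2.29 ± 0.18 (SE) in wildtype (adjusted p = 1.51e-08) and 2.37 ± 0.17 in KO mice (adjusted p = 2.47e-09, both edgeR).

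The deviations of Csf2rb and Csf2rb2 from their group means were more alike than those of either with any other tested gene (r = 0.959). The next most like were Ddx3x (0.954) and Adam3 (0.946) for Csf2rb, and Xrn2 (0.939) and Hnrnpdl (0.936) for Csf2rb2. The ratio of Csf2rb2 to Csf2rb counts stayed between 0.515 and 0.635 over all 19 libraries, with medians of 0.561 and 0.595 in wildtype PBS and LPS and 0.570 and 0.575 in KO PBS and LPS libraries. The genes are near-identical in places. Of the 75-base windows of their canonical transcripts, 11.04% of those of Csf2rb and 11.1% of those of Csf2rb2 occur in transcripts of the other gene. How reads that match both were counted was not stated, so each level and part of the likeness are uncertain.

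Csf2ra (ENSMUSG00000059326, chr19:61212395-61216892, minus strand), the alpha chain that binds GM-CSF, showed smaller differences. It stood at 88.6, 69.4, 74.4 and 80.7 CPM in wildtype PBS and 129, 86.8, 107.9, 82.1 and 104 CPM in wildtype LPS libraries. KO PBS libraries had 66.2, 67.8, 64.3, 79.3 and 75.01 CPM and KO LPS libraries 72.2, 93.5, 93.7, 94.8 and 151 CPM. The treatments overlapped in both genotypes. The log2FC was 0.38 ± 0.17 (SE) in wildtype mice, where it did not pass (adjusted p = 0.0817), and 0.52 ± 0.16 in KO mice, where it passed (adjusted p = 0.0118, both edgeR), and the difference between the genotypes did not pass (interaction log2FC 0.14, 95% confidence interval -0.35 to 0.63). The KO call depended on KO LPS replicate 5, the library of lowest marker score, without which the log2FC was 0.33 and 5 rather than 6 members passed in KO mice. It also fell under the fold threshold with other low-count filters (0.48 without a filter). The genes most like it were Dennd4b (r = 0.943), Junos (0.939) and Gm57093 (0.930).

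Within libraries, the count of Csf2ra relative to Csf2rb fell from a median of 0.620 in wildtype PBS to 0.187 in wildtype LPS libraries and from 0.549 to 0.170 in KO libraries. The highest LPS ratio was 0.194 and the lowest PBS ratio 0.490, so the treatments did not overlap.

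**Figure D4:**
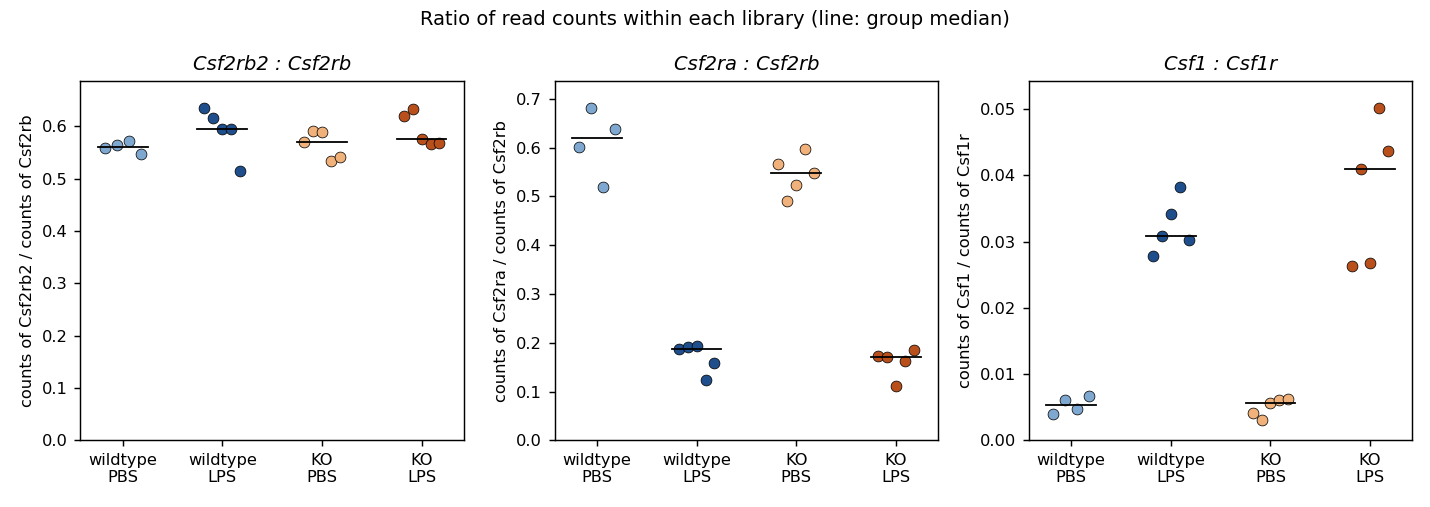
Ratio of read counts of 2 genes within each of the 19 libraries, by group; points are libraries and lines group medians. The ratio of Csf2rb2 to Csf2rb stays between 0.515 and 0.635 throughout, that of Csf2ra to Csf2rb is at most 0.194 after LPS against at least 0.490 at PBS, and that of Csf1 to Csf1r is at least 0.0263 after LPS against at most 0.00668 at PBS.

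The genotypes were compared under each treatment. None of the 7 tested members passed the threshold for genotype (unadjusted p-value under 0.05 and a log2FC of at least 0.5 in size) after LPS, where 1.31% of all tested genes did, or after PBS, where 0.800% did. The genotypes overlapped for every member under both treatments, whereas 0.219% of all genes after LPS and 0.971% after PBS had groups apart. For Csf1 after LPS the unadjusted p was 0.0440 (edgeR, adjusted p = 1.00), with a log2FC of 0.34 (95% confidence interval 0.01 to 0.67) that lay under the fold threshold. The mean was 237 ± 66.7 CPM in KO and 187 ± 22.0 CPM in wildtype LPS mice (SD, n = 5 each), 3 of 5 KO libraries lay above every wildtype library, and the exact two-sided permutation test gave p = 0.190. Without KO LPS replicate 5 the log2FC was 0.20. Csf3 after LPS had a log2FC of -0.43 (95% confidence interval -1.33 to 0.48). It was -0.02 without wildtype LPS replicate 4, its highest library, and -0.67 without wildtype LPS replicate 1, its lowest, and -0.24 without KO LPS replicate 5. The other differences after LPS were -0.08 for Il34, 0.13 for Csf1r, -0.01 for Csf2ra, 0.09 for Csf2rb and 0.08 for Csf2rb2, and without KO LPS replicate 5 they were 0.23, 0.07, -0.20, -0.02 and -0.01 in the same order. Without wildtype LPS replicate 1 they were -0.32, 0.21, 0.09, 0.14 and 0.16.

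After PBS the genotype differences were -0.08 for Csf1, -0.15 for Il34, 0.02 for Csf1r, -0.15 for Csf2ra, 0.00 for Csf2rb and 0.01 for Csf2rb2, all on the log2 scale. For Csf3, with 6 counts in each PBS group, the fitted value was -0.47 with a 95% confidence interval of -3.54 to 2.60. For Csf1, Csf1r and the 3 GM-CSF receptor chains the 95% confidence intervals at PBS ran at most from -0.50 to 0.45, whereas that of Il34 reached from -1.64 to 1.33. No member passed the interaction of genotype and treatment, and no gene of all 18739 did (edgeR, adjusted p-value under 0.05). At an unadjusted p under 0.05, 180 genes (0.961%) passed in edgeR and 223 in DESeq2, where the adjusted count was also 0. The interaction of Csf1 was 0.42 ± 0.23 (SE, unadjusted p = 0.0825), and those of the other members had unadjusted p of 0.558 or more.

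Related cytokine and receptor genes that passed mostly fell. Of 11 such genes, 8 passed the filter, of which 1 rose and 3 fell in wildtype and 0 rose and 4 fell in KO mice. The gene that rose in wildtype was Il3ra, the alpha chain of the IL-3 receptor, with a log2FC of 0.80 (adjusted p = 0.00234, edgeR), against 0.45 in KO mice, where it missed the fold threshold alone (adjusted p = 0.0454), and the interaction did not pass (-0.34, unadjusted p = 0.201, edgeR). Among those that fell in both were Kitl, the ligand of KIT, by 1.24 and 1.51 on the log2 scale, and Flt3, the receptor of FLT3 ligand, by 1.43 and 1.24. Csf3r, the receptor of G-CSF, was singled out after its values were seen, as the partner of Csf3. It fell from 465.8 ± 68.8 CPM (SD, n = 4) to 299 ± 46.2 CPM (SD, n = 5) in wildtype mice, a log2FC of -0.64 (adjusted p = 0.00603), and from 445 ± 46.0 to 305 ± 82.6 CPM (SD, n = 5 each) in KO mice, a log2FC of -0.55 (adjusted p = 0.0109, both edgeR).

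Genes of signalling downstream of these receptors and of its feedback mostly rose where they passed. Of 25 genes, 14 rose, 1 fell and 10 did not pass in wildtype mice, and 14 rose, 2 fell and 9 did not pass in KO mice. The feedback inhibitors Socs2 (log2FC 3.55 ± 0.35 and 4.05 ± 0.32, SE) and Socs3 (3.29 ± 0.27 and 3.60 ± 0.25) rose in wildtype and KO mice, as did the kinase Pim1 (3.45 and 3.35). The lipid phosphatase Inpp5d, also called SHIP1, fell by 0.63 and 0.69 on the log2 scale in wildtype and KO mice. Over the whole list the log2FC had a median of 0.54 in wildtype mice and of 0.58 in KO mice.

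Among 8 transcription factors and shedding proteases with known roles at Csf1r or its protein, 5 rose, 2 fell and 1 did not pass in each genotype. Cebpb, a C/EBP factor of activated macrophages, rose by 3.14 ± 0.30 in wildtype and 2.59 ± 0.27 in KO mice on the log2 scale (SE), and Ets2 by 2.04 ± 0.26 and 2.06 ± 0.24. The myeloid factors Fli1 (-1.45 and -1.74) and Cebpa (-1.28 and -1.34) fell.

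Of 6 regulators of the decay of cytokine mRNAs, 4 rose and none fell in each genotype, the largest being Zc3h12a, the endonuclease Regnase-1 (log2FC 2.27 and 2.49), and Zfp36, tristetraprolin (1.16 and 1.31). The 5 NF-kappaB subunit genes included 4 that rose in wildtype and 5 in KO mice, led by Nfkb2 (2.79 and 3.09) and Relb (2.60 and 2.80). Rel passed in KO mice (0.95) and not in wildtype mice (0.60, adjusted p = 0.0838), and the interaction did not pass (0.36, unadjusted p = 0.338, edgeR).

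Csf2 itself was at most 1 count in any library. Of 6 genes known as targets of GM-CSF, 4 rose and 1 fell in both genotypes, as 16.8% and 15.4% of all tested genes did. The part of GM-CSF in their changes was not tested. Ccl22 rose by 5.56 ± 0.40 in wildtype and 4.46 ± 0.35 in KO mice (log2FC ± SE), and Ccl17 by 3.99 ± 0.53 and 3.62 ± 0.49, both chemokines that bind CCR4. Irf4 fell by 1.06 and 0.73. After LPS, Ccl22 was also lower in KO than wildtype mice (log2FC -0.89, unadjusted p = 0.00689, adjusted p = 1.00, edgeR), which is 1 of the 58 tested genes of these lists past the genotype threshold after LPS, beside 1.31% of all tested genes. Over all lists, 39 of 58 tested genes passed in wildtype mice (32 rose) and 41 in KO mice (32 rose), against 35.9% and 39.1% of all genes tested in either direction.

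Markers of other leukocytes changed with LPS beside the members, with rises among the neutrophil and monocyte lists and falls among others. Summed neutrophil markers ran from 52.5 to 97.5 CPM in wildtype PBS and 160 to 452 CPM in wildtype LPS libraries, and from 20.9 to 185 and 99.9 to 446 CPM in KO libraries, with Cxcr2 up in both (log2FC 4.17 and 4.00) and the defining Ly6g at 3 to 30 counts in every library. Summed monocyte markers ran from 126 to 327 and 451 to 719 CPM in wildtype PBS and LPS libraries and from 156 to 323 and 284 to 711 CPM in KO libraries. Of the 8 neutrophil markers 4 rose in wildtype and 5 in KO mice, and of the 6 monocyte markers 5 rose in both, while the summed levels of both lists overlapped between treatments in KO mice. Both cell types carry Csf2rb and Csf3r, and their part in the results was not tested. Of the 6 border-associated macrophage markers 3 fell in each genotype (Cd163, Lyve1 and Ms4a7) and 3 did not pass, and their summed level ran from 510 to 620.0 CPM in wildtype PBS and 298 to 508 CPM in wildtype LPS libraries, and from 469 to 624.8 and 264 to 480 CPM in KO libraries. Of the B cell markers, Ms4a1 held at most 5 counts in any library, and Ighm and Cd79b fell in both genotypes. Only 2 of the 8 T and NK cell markers were tested, and neither passed for LPS, whereas the NK receptor gene Ncr1 passed the genotype threshold after LPS (log2FC -1.63, unadjusted p = 0.0277, adjusted p = 1.00, edgeR). Of the 4 tested dendritic cell markers, Ccr7 rose and Flt3 fell in both genotypes, Cd209a fell in wildtype mice and Zbtb46 did not pass, and the untested Clec9a and Xcr1 held at most 13 counts. Summed neuron, astrocyte, oligodendrocyte, endothelial and pericyte markers overlapped between treatments in both genotypes. Single markers of these cells passed in both. The endothelial Slco1a4 (-3.94 and -3.97) and Cldn5 (-1.58 and -1.78) and 1 pericyte marker fell. The astrocyte gene Gfap (1.71 and 1.65) and the neuron gene Tubb3 (2.56 and 1.66) rose. Others passed in 1 genotype alone. The endothelial Cdh5 rose past the threshold in KO mice, with means of 39.6 CPM at PBS and 96.3 CPM after LPS. In wildtype mice its means were 42.4 and 105 CPM, and it did not pass. The neuron gene Stmn2 fell in wildtype mice (-1.35, adjusted p = 0.0414, edgeR) and did not pass in KO mice (-0.87).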

How the data were processed

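The authors trimmed the paired reads of stranded, ribosome-depleted total RNA libraries with Cutadapt, aligned and counted them with STAR 2.7.9a on GRCm39, and deposited raw counts per Ensembl gene without normalization. The strand setting of the counting and the treatment of reads that match several genes are not given in the sources used here. Genes were named and placed by GENCODE M39, also GRCm39, which named 56236 of 56980 genes. Genes were filtered with filterByExpr of edgeR 4.0.16 (minimum count 10, minimum total count 15), which left 18739, and all 19 libraries entered 1 quasi-likelihood fit with TMM factors and 4 groups in R 4.3.3. The SE of a log2FC was its size over the square root of F. Log2 CPM used a prior count of 2. Within-group pairs of libraries differed by a chi-square of at least 6.50 per degree of freedom, so each library was 1 replicate.

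The members and lists were chosen with earlier results of these data known. Beyond the members, the text names by a written rule, for each pathway list, the 2 genes per direction with the largest mean changes past the threshold in both genotypes, the defining genes of each marker list, and the 3 tested genes whose log2 CPM deviations from the group means are most like a member's. Il3ra, Rel, Csf3r, Pim1, Ncr1 and single markers of other brain cells were named after their values were seen. Alternatives were other filters, DESeq2 size factors, DESeq2 1.42.0, only the groups compared, the replicate number as a block, a covariate for the animal number, and each library left out. The marker score as a covariate was added after the data were seen. In simulated counts for wildtype LPS against PBS on 18325 genes, 38.2% of 102 genes changed by 2-fold and 83.9% of 93 genes changed by 4-fold were called. So were 4 of 18130 unchanged genes, all at an adjusted p-value under 0.05 alone. Far fewer genes were changed there than the 35.9% that passed in wildtype mice. The adjustment depends on that share, so these rates do not give the power of the real comparison. The labels do not say whether same-numbered mice were littermates. Some marker genes and sequences are not reported here.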

Additional observations from a re-analysis of the deposited data

Results flagged for a closer look

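In 30 groups of 4 or 5 libraries with unequal values of a member, 3 libraries stood apart from their group by Dixon's 95% criterion, where chance alone gives about 1 in 20 groups. Csf3 was 0.372 CPM in wildtype PBS replicate 4, from 6 counts, against 0 in the other 3 libraries of that group. With those 3 tied at 0, any count at all would have met the criterion, so it says nothing about this library. Csf3 was 0.203 CPM in KO PBS replicate 3, from 4 counts, against 0 to 0.0540 CPM in the other 4. Csf2ra was 151 CPM in KO LPS replicate 5, against 72.2 to 94.8 CPM in the other 4, and that library had the lowest marker score of other brain cells, 6.55.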

How the results depend on the processing

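The members past the threshold numbered 4 to 5 in wildtype and 4 to 6 in KO mice for LPS, and 0 for genotype and interaction, under every alternative, and the genes of the other lists 37 to 43 and 38 to 46. Csf1, Csf3, Csf1r, Csf2rb and Csf2rb2 kept their LPS call and direction under every setting in which they were tested; the filter of 10 counts in every library removed Csf3 and Il34. The LPS call of Csf2ra in KO mice was lost on the fold alone without a low-count filter (log2FC 0.48), with 10 counts in every library (0.46), with the replicate block (0.50) and the animal number (0.49), with the marker score added after seeing the data (0.43), and without KO LPS replicate 5, KO PBS replicate 1 or KO PBS replicate 3 (range 0.33 to 0.63 over libraries left out). Differences of genotype that changed sign had not passed in any fit. Fits without a filter gave -0.011 for Csf1r and -0.022 for Csf2rb2 after PBS, and the stricter filter -0.0085 and -0.021. DESeq2 size factors gave 0.0030 for Csf2ra after LPS and -0.011 for Csf2rb2 after PBS, and DESeq2 0.0028 and -0.011. The animal number gave -0.0082 for Csf2rb2, the groups compared alone 0.0056 for Csf2rb, and the marker score 0.013 for Il34 and 0.023 for Csf2rb, all after PBS. Leaving out 1 library moved the genotype difference after LPS from -0.56 to 0.23 for Il34, -0.20 to 0.090 for Csf2ra, -0.032 to 0.21 for Csf2rb and -0.027 to 0.20 for Csf2rb2. After PBS it moved it from -0.47 to 0.43 for Il34, -0.074 to 0.15 for Csf1r, -0.097 to 0.067 for Csf2rb and -0.084 to 0.075 for Csf2rb2. The interaction of Csf2ra ran from -0.053 to 0.24. The LPS difference of Il34 moved from -0.055 to 0.86 in wildtype and from -0.13 to 0.65 in KO mice. The causes were not tested.

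The labels do not say that the replicate numbers pair the mice, and same-numbered deviations were not alike in every pair. Between treatments r ran from -0.04 to 0.58 in wildtype mice and from 0.03 to 0.54 in KO mice, and 4 of 19 libraries were most like one of their own number. With the replicate block, 5 members passed in wildtype and 5 in KO mice, and the genotype difference after PBS became 0.22 for Il34 and -0.00057 for Csf2rb2. By library totals in place of TMM, the genes that rose and fell with LPS numbered 3167 and 4130 in KO mice, against 3759 and 3564 with TMM. Depth limits Csf2 and the PBS level of Csf3, at 0 to 6 counts per library.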
